A study of Mus musculus with 6 samples.

Results

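The solute carriers are a superfamily of membrane proteins that move amino acids, sugars, ions, metals, vitamins and mitochondrial metabolites across membranes. Genes were taken by symbol, as Slc, a family number, the letter a and a member number, without the glucose carriers Slc2a1 and Slc2a3, the lactate carriers Slc16a1 and Slc16a3 and the red cell anion exchanger Slc4a1. This gave 233 of the 12393 genes named on the arrays, from 48 families. Of these, 142 had a mean signal of at least 100 and were compared between groups, and 91 did not.

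The samples were whole brains of Swiss Albino mouse embryos at stage E11.5. In the control group, 3 brains came from embryos of normal mice. In the diabetic group, 3 malformed brains came from embryos of mothers with diabetes induced by streptozotocin, which kills pancreatic beta cells. Maternal diabetes and malformation therefore cannot be told apart, and because the sources do not say whether brains shared a litter, the spread between arrays may not be that between litters. Fewer cells of a type and less RNA per cell also cannot be told apart in whole brain RNA.

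Many carriers are driven by the sodium gradient that the Na+,K+-ATPase maintains, some exchange one solute for another, and others are facilitative. In the embryonic brain, amino acid carriers feed protein synthesis in dividing progenitors, mitochondrial carriers link the matrix to the cytosol, and vesicular carriers load transmitters in the first neurons. The brain at this stage is vascularised but has no mature choroid plexus, and many carriers of the adult barrier and of glia come up later.

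Each brain was on its own array, and the values lie in 2 tables of related Affymetrix chips: control and diabetic replicates 1 and 2 in the first, control and diabetic replicate 3 in the second. Across genes, correlations within a table were 0.937 to 0.975 on the log2 scale, and between the tables they were 0.880 to 0.931. The median signal of the tested solute carrier genes was 304 to 317 on the arrays of the first table and 206 to 220.3 on those of the second, and 112 of 142 members were dimmer in the second. Every difference was for this reason taken within a table. Diabetic replicate 2 lay apart from the other diabetic arrays in the glucose and lactate carriers left out here, and it also bore on members. Without it, 32 of 67 named members moved by over 1.5 times or turned in sign, and values without it are given for the 10 of these with a change over 0.3 in size and for the 6 that turned. This count includes changes near 0 and was not made for the other arrays or for all genes. Of 72 named genes, with the carriers left out included, 66 kept their sign without diabetic replicate 2. The number was 67 without diabetic replicate 1, 67 without control replicate 1 and 68 without control replicate 2.

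The comparison asked which carriers differed between brains of embryos from diabetic and normal mothers. A change below is the diabetic minus the control mean of log2(signal + 32), given with its standard error, so that a change of 1 is a doubling of signal + 32. No solute carrier gene passed: limma called 0 of 142 members and 0 of 8627 genes (0%) at an adjusted p under 0.05, and the smallest adjusted p among members was 0.527, for Slc3a2 and Slc27a1. At an unadjusted p under 0.05 there were 17 members, or 12.0%, against 659 genes or 7.64% of all genes tested. Of these members 10 were higher and 7 lower, where 3.73% and 3.91% of all genes were. The count of 17 was 9 without control replicate 1, 11 without control replicate 2 and 9 without diabetic replicate 2. For all genes the count of 659 also fell, to 414, 565 and 473 in the same order. The difference between the shares was not tested. With the mean of all probe sets of a gene the count was 11 members, against 603 of all genes.

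In the probe sets used, member changes ran from -0.70 for Slc26a2, with Slc17a6 also at -0.70, to 0.86 for Slc5a5. The quartiles of the members were -0.12 and 0.18, and those of all genes -0.14 and 0.16. The median was 0.043 for members and 0.012 for all genes, with 81 of 142 members (57%) above 0 against 52.2% of all genes. In 10 members (7.04%) the change was over 0.5 in size, which 4.66% of all genes reached. The median size of a change was 0.15 for members and 0.15 for all genes.

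In 29 members (20.4%) no diabetic array overlapped the controls of its table and the side was the same in both tables, against 21.9% of all genes. Of these 17 were higher (11.3% of all genes were) and 12 lower (10.6%). Of the 29, 13 also had an unadjusted p under 0.05, a joint count that was not made for all genes. The higher ones were Slc3a2, Slc1a5, Slc43a3, Slc38a3, Slc39a7, Slc46a1, Slc46a3 and Slc27a1, and the lower ones Slc26a2, Slc25a44, Slc39a9, Slc33a1 and Slc35a5. Slc46a3, with a control mean of 98.7, and Slc33a1, with a diabetic mean of 91.3, reached the signal minimum only through the group where they were high. The change had the same sign in both tables for 79 of 142 members (55.6%) and for 51.5% of all genes. The shares without overlap and of equal sign are thus near those of all genes.

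**Figure D1:**
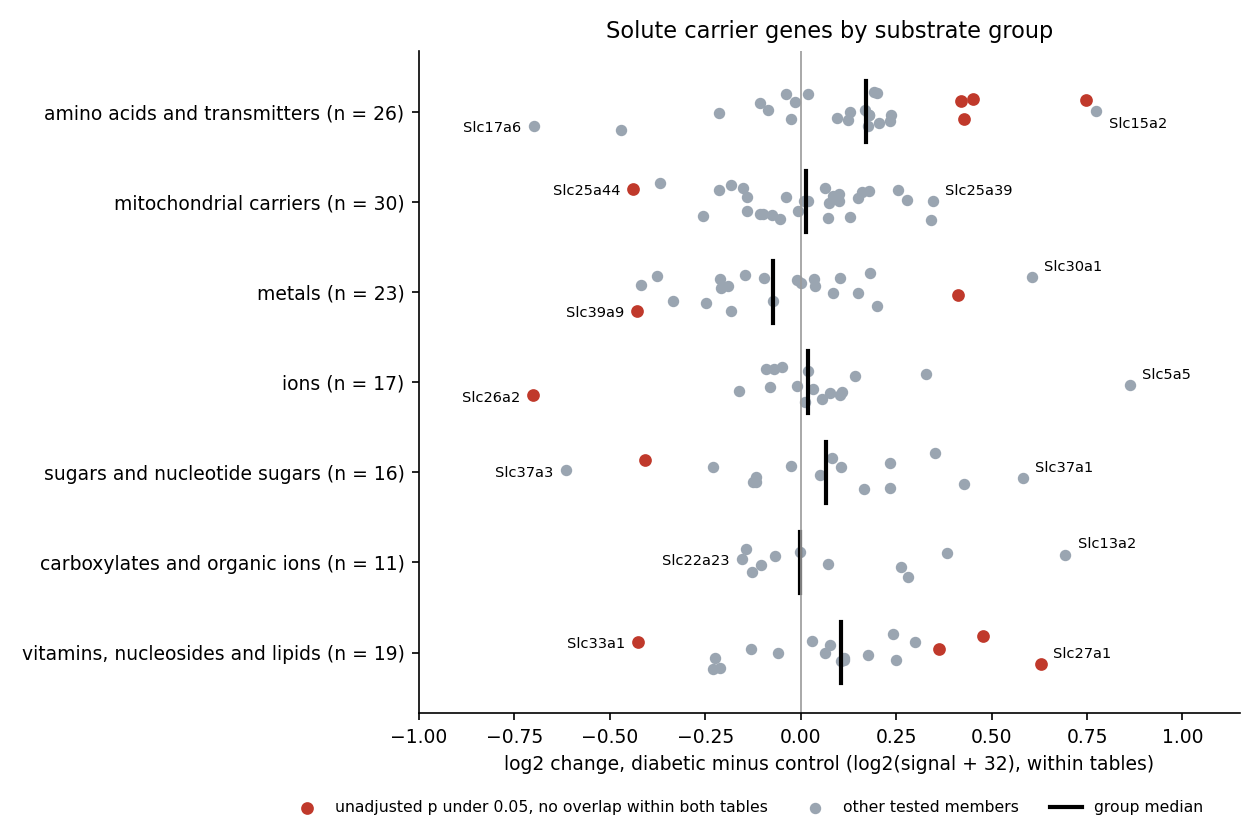
Each point is 1 of the 142 tested solute carrier genes, placed by its log2 change (diabetic minus control, log2(signal + 32)) in rows of substrate groups, with black bars at group medians and red points for members with an unadjusted p under 0.05 and no overlap within both tables. Group medians lie between -0.072 for metals and 0.17 for amino acids and transmitters, and most points lie between -0.25 and 0.25.

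**Figure D2:**
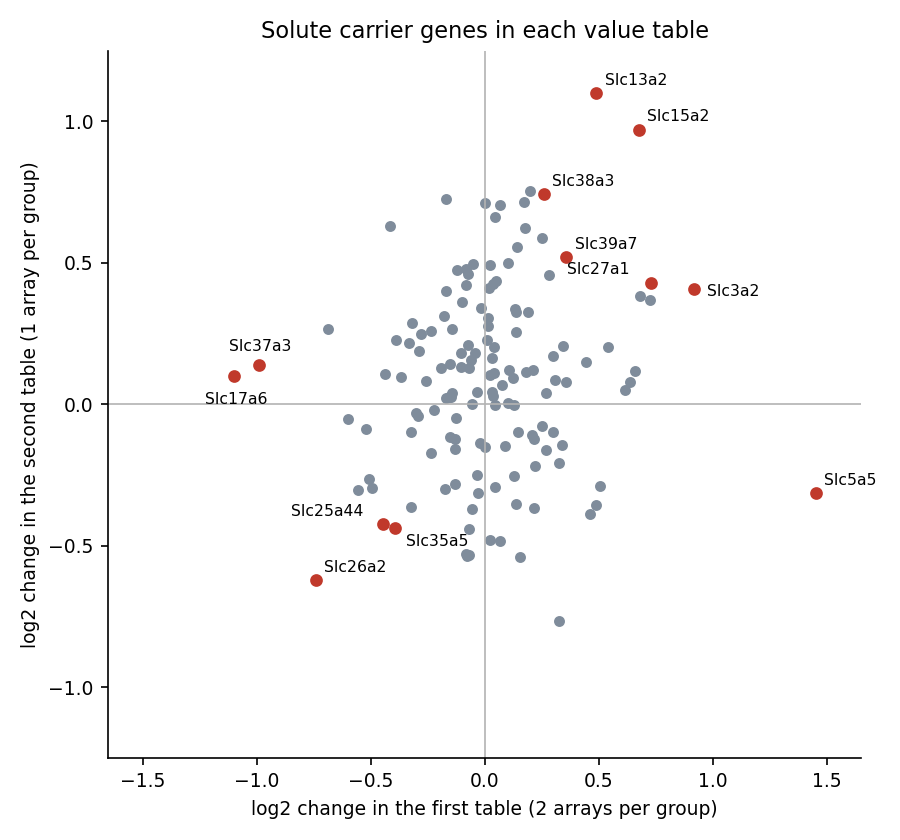
Each point is 1 of the 142 tested members, with its log2 change in the first table (2 arrays per group) across and in the second table (1 array per group) up; red points are members described in the text. Slc3a2, Slc27a1, Slc13a2 and Slc15a2 lie above 0 in both tables and Slc26a2, Slc25a44 and Slc35a5 below 0 in both, while Slc5a5, Slc17a6 and Slc37a3 have their size in the first table and the opposite sign in the second.

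Among carriers of amino acids, peptides and transmitters, 18 of 26 tested members lay above 0, with a median change of 0.17. On diabetic replicates 1 to 3 the group's median lay 0.13, 0.065 and 0.16 above the controls of the same table. The median was 0.099 without control replicate 2 and 0.091 without either array of the second table. The unadjusted p was under 0.05 for 4 higher members and 1 lower member of 26, where 3.73% and 3.91% of all genes were. The plot of these carriers sets each change beside its value without diabetic replicate 2.

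Slc3a2 encodes the heavy chain that brings light chains of the Slc7 family to the cell surface and does not itself transport. In this and the following sentences signals run in the order of replicates 1 to 3: Slc3a2 had 969.7, 1085 and 785 in controls and 1671, 2315 and 1051 in the diabetic group. All diabetic arrays lay above the controls of their table, and the change was 0.75 ± 0.19 (SE, n = 3 per group), or 1.68-fold, with 0.92 and 0.41 in the tables and 0.57 without diabetic replicate 2. Its adjusted p in limma was 0.527.

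The light chains had smaller changes. Slc7a5, the light chain for large neutral amino acids, had signals of 397, 506 and 269 in controls and 537, 555 and 277 in the diabetic group, without overlap within tables, and a change of 0.19 ± 0.16 (SE, n = 3 per group). Slc7a6, which exchanges cationic for neutral amino acids, had 0.20 ± 0.18 with overlapping arrays, against 0.0061 in its other probe set. Slc7a7, of the same exchange activity, had -0.11 ± 0.17, and Slc7a10, a light chain for small neutral amino acids, -0.014 ± 0.19. Whether these changes differ from that of Slc3a2 was not tested.

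Slc1a5, an exchanger of glutamine and other neutral amino acids, had 239, 218 and 236 in controls and 317, 437 and 251 in the diabetic group. The groups did not overlap within tables, and most of the change of 0.45 ± 0.19 (SE, n = 3 per group) came from the first table, with 0.64 there and 0.079 in the other. It was 0.28 without diabetic replicate 2. Slc38a3, a glutamine carrier coupled to sodium and protons, had a change of 0.42 ± 0.17, and its signals of 231, 234 and 45.3 in controls and 252, 320.1 and 97.3 in the diabetic group did not overlap within tables. Slc43a3, placed here by its family and known as a carrier of purine nucleobases, had 201, 224 and 256 in controls and 291, 359 and 299 in the diabetic group, a change of 0.43 ± 0.17.

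Slc38a2, the sodium-coupled carrier that cells raise when short of amino acids, lay on the other side, with 2286, 2567 and 4062 in controls and 2251, 1190 and 3289 in the diabetic group. Each diabetic array was below the controls of its table, diabetic replicate 1 by a small margin, and the change of -0.47 ± 0.23 (SE, n = 3 per group) was -0.19 without diabetic replicate 2. Its relative Slc38a1 had 0.18 ± 0.19 with overlapping arrays. Slc6a15, a carrier of branched-chain amino acids and proline in neurons, had -0.21 ± 0.16, with signals of 150, 163 and 231 in controls and 114, 144 and 201 in the diabetic group.

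Slc15a2, a proton-coupled carrier of small peptides, had the largest change of the group and the widest spread, 0.77 ± 0.50 (SE, n = 3 per group). Controls had 346, 93.2 and 27.6 and the diabetic group 145, 649.8 and 84.9, so the groups overlapped in the first table, and the change was 0.25 without diabetic replicate 2. Among carriers of creatine, taurine and glycine, Slc6a8 had 0.21 ± 0.22, Slc6a6 0.24 ± 0.25 and Slc6a9 0.23 ± 0.18, all with overlapping arrays. The other probe set of Slc6a9 had -0.32, that of Slc6a8 0.029, and the other of Slc6a6 above the minimum 0.15. Slc1a3, the glutamate carrier of radial glia, had -0.025 ± 0.17, and its other probe sets had 0.38 and 0.31.

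**Figure D3:**
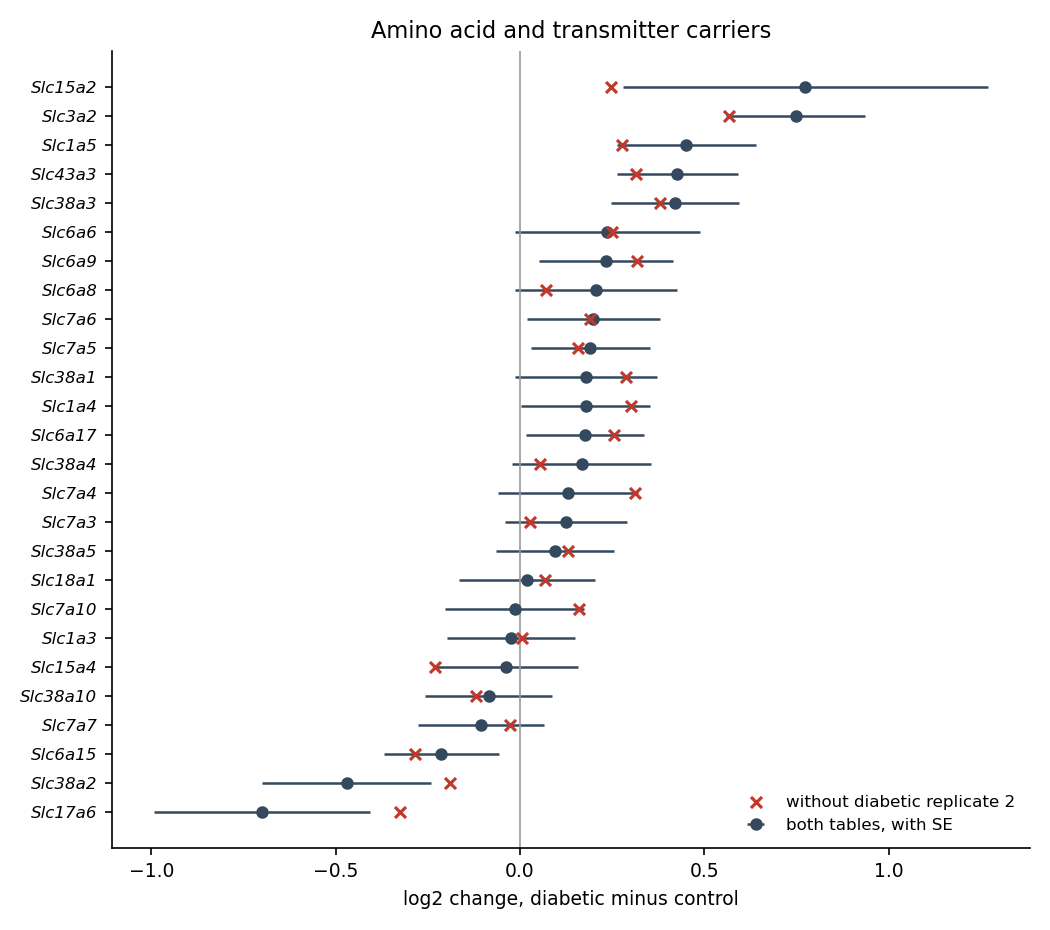
Log2 change (diabetic minus control) of the 26 tested carriers of amino acids, peptides and transmitters, with dark points and bars for the value over both tables and its standard error (n = 3 arrays per group), and red crosses for the value without diabetic replicate 2. Slc3a2 keeps 0.57 of 0.75 without that array, whereas Slc15a2 moves from 0.77 to 0.25 and Slc17a6 from -0.70 to -0.33.

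Slc17a6 loads glutamate into synaptic vesicles and marks the first glutamatergic neurons. Signals were 260.1, 213 and 242 in controls and 139, 59.0 and 262 in the diabetic group: lower in the first table and not in the second. The change was -0.70 ± 0.29 (SE, n = 3 per group), with -1.10 and 0.098 in the tables, and the value without diabetic replicate 2 was -0.33. The gene's other probe set, with a mean linear signal of 204 against 196, had -0.94, lower than any member in the probe sets used. Of 14 neuron markers tested, 12 lay below 0 with a median of -0.26, and their median on diabetic replicates 1 to 3 was -0.35, -0.77 and 0.033. Leaving out diabetic replicate 2 gave a marker median of -0.026 and put 6 of 14 above 0. Summed over the markers, signals in the first table were 17157 and 16606 in controls and 13469 and 9387 in the diabetic group. In the second table they were 18578 in the control and 20188 in the diabetic array, and no marker had a signal of 0. The part of neuron content in the value for Slc17a6 was not tested. Of the carriers of neurons listed with it, Slc18a1, a vesicular amine carrier, had 0.020 ± 0.18. Slc12a5, the chloride exporter of maturing neurons and an ion carrier, had 0.11 ± 0.17. The remaining 7 on the arrays were below the signal minimum, among them Slc32a1, the vesicular carrier of GABA and glycine, at 14.2 to 133 in controls and 35.5 to 80.6 in the diabetic group.

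Several amino acid carriers are known targets of Atf4, the transcription factor of the amino acid and stress response. Of 9 such genes listed, 7 were tested and 6 lay above 0, with a median of 0.19 and no adjusted call. These were Slc3a2, Slc1a5, Slc6a9, Slc7a5, Slc1a4 with 0.18 ± 0.18 and Slc7a3 with 0.12 ± 0.17, against Slc38a2 below 0. The other probe set of Slc6a9 had -0.32, and those of Slc1a4 had -0.11 and 0.28. Slc7a11, the cystine and glutamate exchanger and the textbook target, was below the minimum, at 109, 91.9 and 46.2 in controls and 79.1, 101.7 and 22.6 in the diabetic group. Slc7a1, a carrier of cationic amino acids, was also below it.

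The binding core of Atf4 with its partner factors, TGATGNAA, was sought on both strands in RefSeq promoter windows of 300 bases (250 before to 50 after the start, GRCm38.p6). It was the only motif searched, so it overlaps no other. It occurred in 3.97% of all 32851 windows, in 8 of 243 windows of solute carrier genes (3.29%), and in 2 of 9 windows covering 6 of the 9 listed genes. Those 2 are printed below 5′ to 3′ on the gene's strand with the matches in capitals, because they show the element in the list; the window of Slc3a2 holds no match, which says only that these letters are not there. The stretch of Slc7a11 is at chr3:50443642-50443690 on the minus strand, upstream of the start, and that of Slc1a4 at chr11:20332699-20332728 on the minus strand, across the start.
Slc7a11: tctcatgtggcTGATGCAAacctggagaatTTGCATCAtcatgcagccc
Slc1a4: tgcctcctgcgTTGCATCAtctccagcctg
Slc7a11 has 2 matches on opposite strands and Slc1a4 has 1. Slc7a11 was below the signal minimum in these brains, and Slc1a4 had signals of 311, 261 and 122 in controls and 322, 259.9 and 185 in the diabetic group, with overlap in the first table.

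The mitochondrial carriers of the Slc25 family were nearly all measured, 30 of 33, and they were centred on 0: 16 lay above it, with a median of 0.015 and medians of 0.014, 0.030 and 0.0093 on diabetic replicates 1 to 3. An unadjusted p under 0.05 was found for 1 member of 30, a lower one, where 7.64% of all genes had one. The brightest probe sets of all members belonged to this family, though brightness differs between probe sets for reasons other than transcript level. They were Slc25a3, the phosphate carrier, Slc25a4 and Slc25a5, both exchangers of ADP and ATP.

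Slc25a3 had 6447, 7910 and 8679 in controls and 7997, 7615 and 8654 in the diabetic group, a change of 0.084 ± 0.16 (SE, n = 3 per group) with overlapping arrays. Slc25a4 had 5934, 6033 and 6271 in controls and 7127, 6466 and 6798 in the diabetic group, with all diabetic arrays higher and a small change of 0.16 ± 0.15, against 0.26 and -0.13 in its other probe sets. Slc25a5 had 0.26 ± 0.16, also without overlap, and its 7 other probe sets ran from -0.30 to 0.44. The gene is reported as uncertain, because processed copies of it may share its probes.

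At the upper end stood Slc25a39, a carrier needed for mitochondrial glutathione, with 3911, 3331 and 3526 in controls and 4364, 5544 and 3917 in the diabetic group. The groups did not overlap within tables, and the change was 0.35 ± 0.17 (SE, n = 3 per group), with 0.36 and 0.15 for its other probe sets and 0.22 without diabetic replicate 2. Slc25a25, a carrier of ATP-magnesium and phosphate, had 0.34 ± 0.20, and Slc25a10, the dicarboxylate carrier, 0.28 ± 0.16, the latter without overlap.

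At the lower end stood Slc25a44, a carrier of branched-chain amino acids. Signals were 355, 324 and 332 in controls and 263, 219 and 239 in the diabetic group, the change was -0.44 ± 0.15 (SE, n = 3 per group), and the tables gave -0.45 and -0.42. The gene's 2 other probe sets went the other way, with 0.36 and 0.41, so the direction for the gene is not settled by these arrays. Slc25a14, an uncoupling protein relative, had -0.37 ± 0.23 and Slc25a42, a coenzyme A carrier, -0.26 ± 0.21; in the second table both lay above 0. Slc25a14 had -0.19 without diabetic replicate 2.

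Of the carriers used by red cell precursors, 3 of 6 tested lay above 0, with Slc25a39, described above, the highest at 0.35. Slc25a37, which takes iron into mitochondria for haem, had -0.15 ± 0.21 (SE, n = 3 per group) and 0.042 without diabetic replicate 2, and Slc25a38, needed early in haem synthesis, 0.020 ± 0.19. Slc40a1, the iron exporter, had -0.42 ± 0.23, with 327, 218 and 193 in controls and 215, 125 and 185 in the diabetic group. Every diabetic array lay below the controls of its table, by little in the second, and the change was -0.18 without diabetic replicate 2. A slightly dimmer probe set of Slc40a1 had -0.19. Slc11a2, the iron importer, had -0.097 ± 0.15, against 0.20 and 0.085 in its other probe sets, and Slc29a1, a nucleoside carrier, 0.25 ± 0.18. Erythroid markers had a median of 0.13 with 8 of 10 above 0. On diabetic replicates 1 to 3 their median was 0.066, 0.016 and 0.44. Their summed signals were mostly those of the globin genes Hbb-y, Hbb-bh1 and Hba-x. In the first table the sums were 43892 and 53224 in controls and 51035 and 58923 in the diabetic group. In the second table they were 51713 in the control and 54734 in the diabetic array, and no marker had a signal of 0. Their part in these values was not tested.

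Carriers of zinc, iron, copper and magnesium had the lowest median of the substrate groups, -0.072, with 10 of 23 above 0. The median was -0.066, -0.21 and 0.026 on diabetic replicates 1 to 3, and leaving out diabetic replicate 2 gave -0.036, leaving out diabetic replicate 1 -0.081. The metal median was 0.014 with the mean of all probe sets of a gene and -0.18 over members with a mean signal of at least 300. Of the 23, 5 lower members and 1 higher had no overlap, where 10.6% and 11.3% of all genes had none. An unadjusted p under 0.05 was found for 1 of each, where 3.91% and 3.73% of all genes had one.

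The higher of these was Slc39a7, which releases zinc from the endoplasmic reticulum, with 980.1, 1041 and 738 in controls and 1172, 1449 and 1073 in the diabetic group. All diabetic arrays lay above the controls of their table, and the change was 0.41 ± 0.16 (SE, n = 3 per group), with 0.36 and 0.52 in the tables. The lower was Slc39a9, a zinc importer of the Golgi and cell surface, with 415, 346 and 329 in controls and 317, 211 and 263 in the diabetic group, a change of -0.43 ± 0.18. Slc39a9 had -0.26 without diabetic replicate 2, and a dimmer probe set of it had 0.041. Slc39a6, a zinc importer of the cell surface, had 2049, 1660 and 2000.0 in controls and 1330, 1223 and 1879 in the diabetic group, a change of -0.38 ± 0.17 with -0.52 and -0.089 in the tables, against 0.023 for its other probe set.

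Slc30a1, which exports zinc from the cell and is raised by zinc through the metal-sensing factor Mtf1, had the largest change of the metal carriers, 0.60 ± 0.32 (SE, n = 3 per group). Signals were low and scattered, 32.9, 105.7 and 92.1 in controls and 193, 75.8 and 128 in the diabetic group, with overlap in the first table, and its mean of 104.7 was just above the minimum. Slc39a14, an importer of zinc and iron, had 0.20 ± 0.18, against 0.49 in its other probe set, and Slc30a9 had -0.21 ± 0.16. Slc39a8, another zinc importer, had -0.21 in the probe set used and 0.51 in the other. Of the zinc and iron handling genes listed, 5 of 8 tested lay above 0 with a median of 0.30 and none passed.

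Carriers of inorganic ions were centred on 0, with 10 of 17 above it and a median of 0.020. Most had small changes with overlapping arrays. Slc12a2, the sodium, potassium and chloride importer that sets high chloride in immature neurons, had 1076, 1366 and 1225 in controls and 1353, 1086 and 1101 in the diabetic group, a change of -0.050 ± 0.17 (SE, n = 3 per group), which was 0.024 without diabetic replicate 2. Dimmer probe sets of Slc12a2 had -0.36 and -0.20. Its relatives Slc12a7 and Slc12a4, which export potassium with chloride, had 0.020 ± 0.16 and 0.14 ± 0.17, and the phosphate importer Slc20a1 had -0.091 ± 0.17, against 0.23 in its other probe set.

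The lowest change of all members in the probe sets used was that of Slc26a2, a sulfate carrier that supplies the sulfation of proteoglycans. It had 256, 178 and 203 in controls and 153, 85.0 and 121 in the diabetic group. Each diabetic array lay below the controls of its table, and the change was -0.70 ± 0.21 (SE, n = 3 per group), or 0.615-fold, with -0.74 and -0.62 in the tables and -0.50 without diabetic replicate 2. Its adjusted p in limma was 0.571, and a dimmer probe set of the gene had -0.012. Markers of mesenchyme and meninges were below 0 in 11 of 11 tested, with a median of -0.30. Their summed signals in the first table were 15247 and 15788 in controls and 13340 and 12338 in the diabetic group. In the second table they were 18676 in the control and 15609 in the diabetic array, and no marker had a signal of 0. Their part in the value for Slc26a2 was not tested.

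Slc5a5, the sodium and iodide importer best known from the thyroid, had the highest change of all members, 0.86 ± 0.33 (SE, n = 3 per group), and it rests on the first table. Signals there were 97.2 and 52.4 in controls and 265 and 242 in the diabetic group, while in the second table they were 62.6 and 44.1, in the opposite order. The tables gave 1.45 and -0.31. With a control mean of 70.7 and a diabetic mean of 184, the gene reached the signal minimum only through the diabetic group. Slc34a2, a sodium-coupled phosphate carrier, had 0.33 ± 0.20 and Slc4a8, a bicarbonate carrier, -0.16 ± 0.26, both with overlap.

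**Figure D4:**
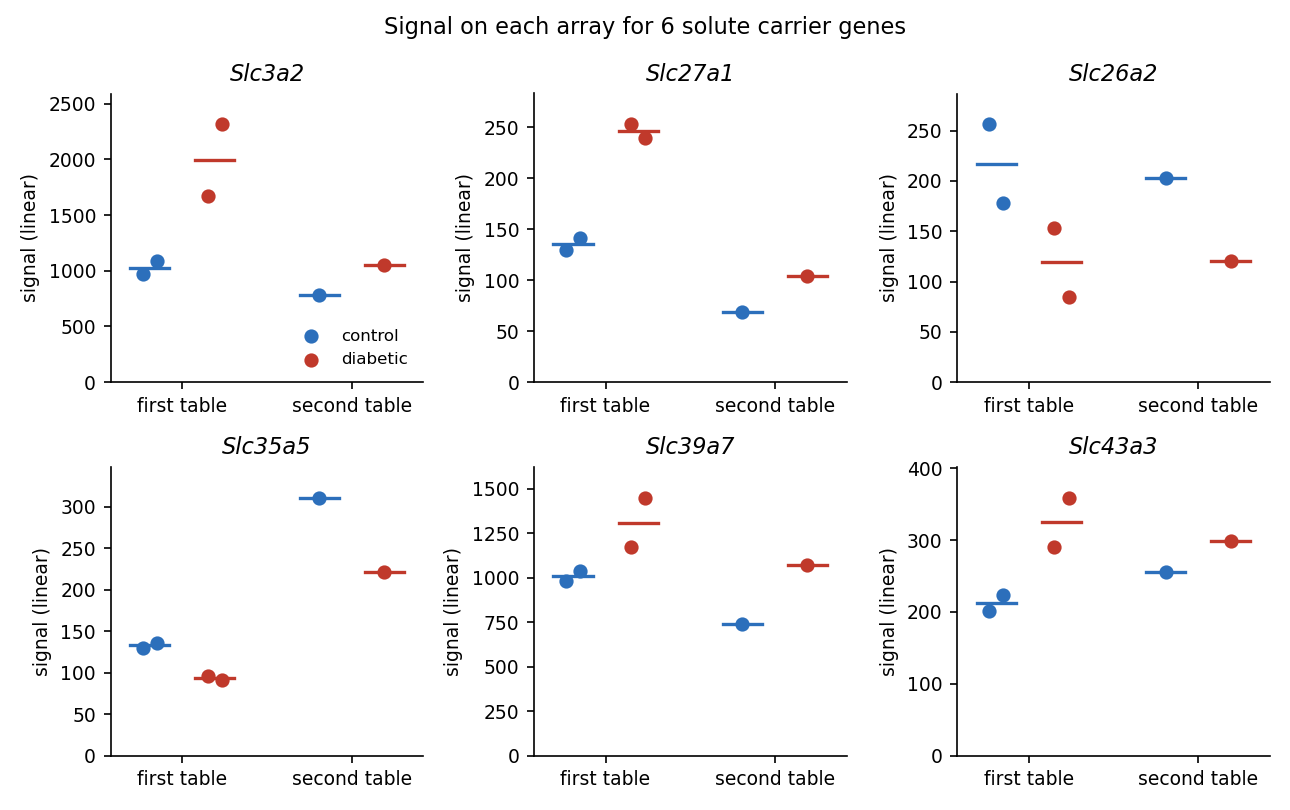
Signal (linear, from 0) on each of the 6 arrays for Slc3a2, Slc27a1, Slc26a2, Slc35a5, Slc39a7 and Slc43a3, with blue control and red diabetic points and bars at the mean of a group within a table. In each gene the diabetic points lie on 1 side of the control points in both tables, higher for Slc3a2, Slc27a1, Slc39a7 and Slc43a3 and lower for Slc26a2 and Slc35a5.

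In the vitamin, nucleoside and lipid group, 13 of 19 members lay above 0, with a median of 0.11 and medians of 0.041, 0.083 and 0.12 on diabetic replicates 1 to 3. Slc27a1, which takes up long-chain fatty acids, had the smallest unadjusted p of all members. It had 130.0, 142 and 68.7 in controls and 253, 239 and 104 in the diabetic group, and the groups did not overlap within tables. The change was 0.63 ± 0.15 (SE, n = 3 per group), or 1.55-fold, with 0.73 and 0.43 in the tables and 0.62 without diabetic replicate 2, and an adjusted p of 0.527 in limma. Its relatives Slc27a3 and Slc27a4 had 0.11 ± 0.21 and 0.11 ± 0.15.

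The folate carriers lay above 0. Slc46a1, the proton-coupled folate carrier, had 129.8, 111 and 73.9 in controls and 139, 159 and 127 in the diabetic group, a change of 0.36 ± 0.16 (SE, n = 3 per group) without overlap. Slc19a1, the reduced folate carrier, had 517, 604 and 374 in controls and 578, 659 and 452 in the diabetic group, a change of 0.18 ± 0.16 with overlap in the first table. Slc46a3, a lysosomal relative, had 0.48 ± 0.19 with 0.66 and 0.12 in the tables.

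Slc33a1, which brings acetyl-coenzyme A into the endoplasmic reticulum, lay below 0. It had 139, 94.3 and 163 in controls and 66.9, 76.2 and 131 in the diabetic group, a change of -0.43 ± 0.17 (SE, n = 3 per group) without overlap. Slc5a6, the carrier of biotin and pantothenate, had -0.23 ± 0.17 and Slc14a2, a urea carrier, -0.22 ± 0.17, both with overlap. The choline carriers Slc44a1 and Slc44a2 had 0.030 ± 0.17 and 0.30 ± 0.20, likewise with overlap, and Slc44a1 had -0.11 without diabetic replicate 2.

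Among carriers of sugars and nucleotide sugars, 9 of 16 lay above 0 with a median of 0.067, which was 0.037 without diabetic replicate 2, 0.11 without control replicate 1 and 0.018 without either array of the second table. Slc35a5, a Golgi protein of the nucleotide sugar carrier family, had 129.6, 136 and 311 in controls and 96.2, 90.9 and 221 in the diabetic group. Replicates lay close together, and the change of -0.41 ± 0.15 (SE, n = 3 per group) was between -0.43 and -0.39 whichever array was left out. Other members with nearby family roles, Slc35a1, the carrier of activated sialic acid, and Slc35a4, had -0.027 ± 0.16 and 0.11 ± 0.17, and Slc35a1 had 0.061 without diabetic replicate 2.

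The sugar phosphate family Slc37 was spread widely. Slc37a3 had 923, 753 and 631 in controls and 418, 389 and 697 in the diabetic group, a change of -0.62 ± 0.23 (SE, n = 3 per group) with -0.99 and 0.14 in the tables; its other probe set had 0.26. Slc37a4, which takes glucose 6-phosphate into the endoplasmic reticulum, had 0.43 ± 0.31 and -0.010 without diabetic replicate 2, the one array at 722 where the others were between 230.2 and 316. Slc37a1 had 0.58 ± 0.28 at signals of 39.6 to 153. Slc2a4, the insulin-responsive glucose carrier of muscle and fat, had -0.23 ± 0.17, against 0.30 in its other probe set, and Slc45a2, a carrier of pigment cells, 0.35 ± 0.20, or 0.57 without diabetic replicate 2.

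Carboxylate and organic ion carriers, many of them of kidney and liver, were mostly dim: 11 of 35 reached the minimum. Their median change was -0.0018, with 5 of 11 above 0. Leaving out diabetic replicate 2 gave 0.072 and put 9 of 11 above 0, and the median was -0.067 without either array of the second table. Slc13a2, a sodium-coupled carrier of citrate and succinate, had 107, 200.2 and 2.95 in controls and 266, 181 and 43.0 in the diabetic group, with overlap in the first table, and a change of 0.69 ± 0.24 (SE, n = 3 per group). Second-table signals of Slc13a2 are so low that the change depends on the pseudocount, with 1.55 at a pseudocount of 1 and 0.40 at 100. Slc22a7, an organic anion carrier, had 0.38 ± 0.17 without overlap, but with 2.45 and 26.1 on the arrays of the second table, where the same limit holds. Slc16a11, a monocarboxylate carrier relative, had 0.28 ± 0.19, and Slc22a17, of the organic cation carrier family, 0.071 ± 0.15. Below 0 were Slc22a23, -0.15 ± 0.18, Slc22a5, the carnitine carrier, -0.14 ± 0.18, and Slc10a3, -0.13 ± 0.18, all with overlap. The other probe set of Slc22a5 had 0.061. Slc10a3 had 0.018 without diabetic replicate 2.

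**Figure D5:**
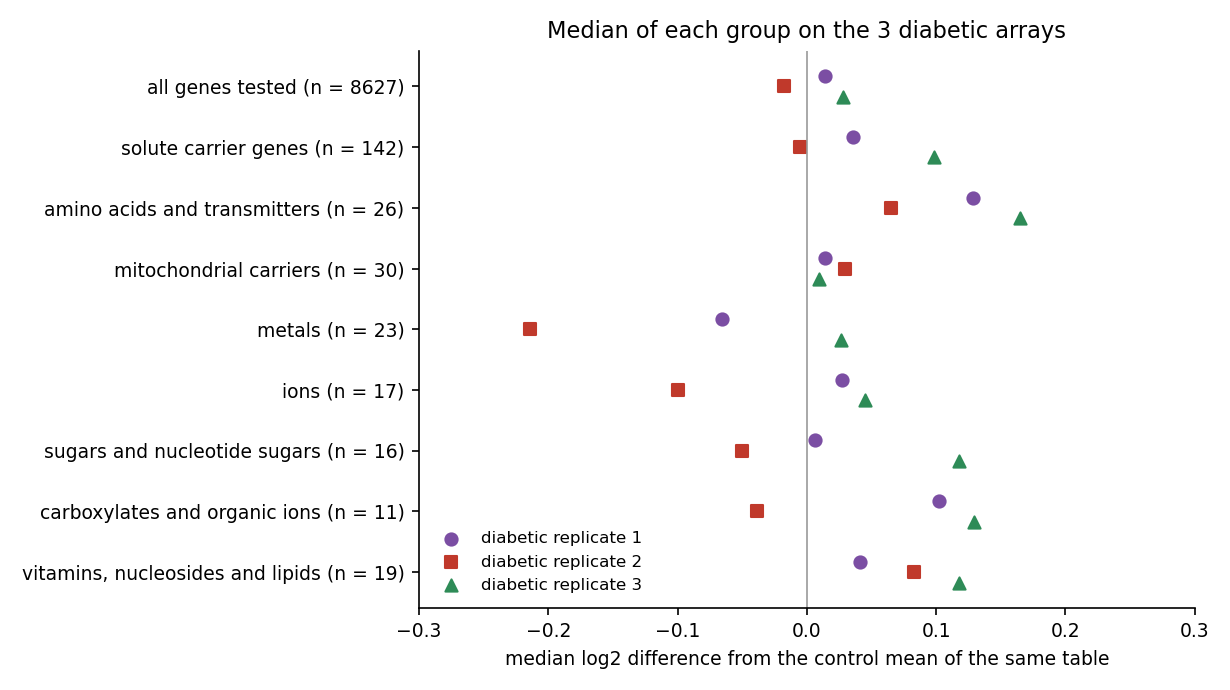
Median log2 difference of each diabetic array from the control mean of its table (1 control array in the second table), for all genes tested, all tested solute carrier genes and the 7 substrate groups, with a marker for each diabetic replicate. Amino acid and transmitter carriers lie above 0 on all 3 arrays, at 0.065 to 0.16, mitochondrial carriers lie between 0.0093 and 0.030, and metal carriers are lowest on diabetic replicate 2, at -0.21.

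Members below the signal minimum were few among mitochondrial carriers, 3 of 33, and more among the amino acid, ion and organic ion groups, with 24 of 50, 17 of 34 and 24 of 35. They include Slc1a2, the main glutamate carrier of mature astrocytes, at 4.81 to 106 over the 6 arrays, and Slc4a10, a bicarbonate carrier of choroid plexus and neurons, at 9.79 to 48.1. Just outside the minimum were Slc6a2, Slc66a1 and Slc5a7, with mean signals of 97.4, 98.7 and 98.7, and just inside Slc22a7, Slc37a1 and Slc30a1, with 101.7, 102 and 104.7. A member can pass the minimum through 1 group alone: 5 tested members had a control mean under 100 (Slc5a5, Slc30a1, Slc37a1, Slc22a7 and Slc46a3) and 2 a diabetic mean under 100 (Slc33a1 and Slc5a6).

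Where several probe sets of a gene reached the minimum, they often differed: of 49 such members, 22 had a probe set of the opposite sign. The share among all genes was not counted.

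Among other transport genes limma made 0 adjusted calls, against 0% of all genes. At an unadjusted p under 0.05, which 7.64% of all genes had, the counts were 0 of 5 Na+,K+-ATPase subunits (median 0.11), 1 of 16 subunits of the vesicular proton pump (0.050), 4 of 20 ABC transporters (0.14), 0 of 3 Slco organic anion carriers (-0.047) and 1 of 8 zinc and iron handling genes. Mpc1, of the mitochondrial pyruvate carrier, had -0.35 ± 0.18 (SE, n = 3 per group). Bsg and Emb, which bring lactate carriers to the membrane, had 0.59 ± 0.24 and 0.38 ± 0.15, both with an unadjusted p under 0.05 and without overlap. Of the 5 carriers left out by the rule 4 lay above 0 and none passed, with Slc16a3 at 1.78, Slc2a1 at 0.83, Slc2a3 at 0.76 and Slc16a1 at 0.49, and Slc4a1 at -0.17. On diabetic replicate 2 their median difference was 1.79, against 0.18 and 0.30 on diabetic replicates 1 and 3.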

How the data were processed

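Values are the deposited linear probe set intensity of 6 Affymetrix arrays; per the file headers the first table is from MOE430A and the second from Mouse430A_2 chips, with different scanner types and fluidics protocols. The submitters' processing notes name GCOS, with an algorithm not given in the sources used here. Each array was rescaled to a trimmed mean of 500 (2% at each end, a shift of at most 0.0363%). Genes were named from the 20380 of 22690 probe sets with 1 gene; 20351 matched RefSeq (GRCm38.p6) and 0 symbols changed. The probe set of highest mean log2 signal stood for each gene, and 8627 of 12393 genes, those reaching a mean signal of 100, were tested on log2(signal + 32), which understates changes of low genes, with limma 3.58.1 in R 4.3.3 (table as a block, two-sided, Benjamini-Hochberg over all genes tested, 3 residual and 6.48 prior degrees of freedom). Precision is limited by the number of arrays, with a median standard error of 0.18 for members. The fit was tested on simulated data.

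Members, substrate groups (by family, with single exceptions), gene lists and alternatives were chosen with earlier results of these data known. Named genes were, per substrate group, the 3 brightest, the 3 highest and 3 lowest changes, members with an unadjusted p under 0.05 and no overlap, members of the transporter lists and the carriers left out; Slc7a6, Slc7a7, Slc7a10, Slc1a3, Slc6a6, Slc6a8, Slc39a8, Slc27a3 and Slc27a4, and the genes named below the minimum, were added for their role after their values were seen. Marker lists not printed beside a result had medians of 0.042 (endothelium), -0.097 (choroid plexus and roof plate), -0.28 (macrophages) and 0.18 (neural progenitors). The choroid plexus and roof plate markers ran from -2.97 for Ttr, the lowest change of all genes tested, to 0.26 for Folr1. Of the liver and yolk sac markers, 0 of 7 reached the minimum.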

Additional observations from a re-analysis of the deposited data

How the results depend on the processing

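With 0 calls in every fit, the alternatives bear on counts and medians. Limma called 0 members and 0 genes at an adjusted p under 0.05 under each alternative with a test, the replicate block included; the second table, with 1 array per group, has no test. The 17 members at an unadjusted p under 0.05 became 5 with a mean signal of at least 300, where fewer genes are tested, and 11 with the mean of all probe sets, where the counts for all genes were 484 and 603; as single arrays were left out the count ran from 9 to 17 for members and from 414 to 839 for all genes, against 659. With the replicate number as a block the counts were 18 and 627. The numbers share no more than a table: within the first table the deviations of same-numbered arrays correlated at -0.0091.

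The median of all members was 0.098 in the second table only. That of amino acids and transmitters was 0.12 with the mean of all probe sets and 0.091 in the first table only; that of mitochondrial carriers 0.074 with a mean signal of at least 300, 0.073 with the mean of all probe sets, 0.044 in the first table only and 0.027 with array weights; that of sugars -0.072 with a mean signal of at least 300; that of carboxylates and organic ions 0.13 in the second table only; and that of vitamins, nucleosides and lipids 0.068 with a pseudocount of 100, 0.045 in the first table only and 0.068 with array weights. The cause was not tested. As single arrays were left out, medians ran from 0.016 to 0.062 for all members, 0.091 to 0.17 for amino acids, -0.012 to 0.044 for mitochondrial carriers, -0.084 to -0.036 for metals, -0.043 to 0.059 for ions, 0.018 to 0.11 for sugars, -0.067 to 0.072 for carboxylates and organic ions, and 0.045 to 0.12 for vitamins. Of 72 named genes, 72 kept their sign under median centring, 71 under quantile normalization, 61 of 69 with the mean of all probe sets, 66 without diabetic replicate 2 and 55 in the second table only. Leaving out replicate 3 of either group equals the first table only.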
